A study of Mus musculus with 2 samples.

Results

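The 8 genes described here, Pparg, Rxra, Nr1h3, Cebpa, Cebpb, Cebpd, Bcl6 and Ppargc1a, encode regulators of fat cell differentiation and their partners. They were chosen by name with earlier results of these data known, so their counts beside those of all genes are no independent support. Every probe set whose annotated gene symbol is one of them was used. This gave 16 probe sets for 8 of the 12394 genes represented on the arrays. RNA came from epididymal white adipose tissue, the fat pad beside the epididymis, of male mice on standard chow. The control group was wild-type mice, labelled as strain 129S1/SvJae and 12 to 16 weeks old. The other group was PPARb/d knock-out mice on a mixed Sv129/C57BL/6 background, labelled as 12 weeks old; Ppard, the gene of the nuclear receptor PPARβ/δ, is disrupted in them, and the sources used here name no tissue-restricted deletion. The design text instead calls the wild-type animals littermates of the knock-out mice and gives an age of 3 months, so strain may differ between the groups as well as genotype. Each group was 1 pool of RNA from 5 animals on 1 Affymetrix mouse array. With 1 array per genotype there is no spread between animals and no test between genotypes, and every difference below is that between these 2 arrays.

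Fat cell differentiation runs as a relay of transcription factors. Cebpb and Cebpd, basic leucine zipper proteins of the C/EBP family, are induced early by hormonal signals and switch on Pparg and Cebpa, which then maintain each other's expression and that of the mature fat cell's lipid genes. PPARγ, the product of Pparg, binds DNA only as a heterodimer with a retinoid X receptor such as that encoded by Rxra, on repeats of the half-site AGGTCA, and the oxysterol receptor LXRα, encoded by Nr1h3, uses the same partner. Ppargc1a encodes PGC-1α, a coactivator of PPARγ and other nuclear receptors that drives mitochondrial genes, and Bcl6 encodes a zinc finger repressor with roles in lymphocytes, macrophages and fat.

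All 8 regulators had a lower intensity in the knockout pool than in the wild-type pool, and in 4 of them the difference was at least 2-fold. These were Pparg, Bcl6, Cebpa and Nr1h3; Rxra, Cebpb, Ppargc1a and Cebpd differed by less than 2-fold. In whole tissue, fewer fat cells and less RNA per fat cell cannot be told apart, and in these same pools adipocyte markers had a median log2 difference of -0.93 and germ cell markers one of 4.60. At least 2-fold lower values were found for 9.14% of the 6533 genes compared and at least 2-fold higher values for 13.7%, among them none of the 8. The median log2 difference, knockout minus wild type, was -1.01 over the 8 regulators, or -0.74 with sub-floor values (those under an intensity of 32) raised to 32, and -0.084 over all genes compared, whose quartiles were -0.50 and 0.42. Being lower at all was common, since 55.5% of the genes compared were lower in the knockout pool. A gene was compared when a probe set reached an intensity of 32 (log2 of 5) on at least 1 array, called the floor here, and was represented by its probe set with the highest mean log2 intensity among those that did. In the gene lists below, genes called above the floor reached it on at least 1 array. Of the 8 regulators 6 were at or above the floor in both pools. Nr1h3 and Ppargc1a passed only through the wild-type pool, so a lower knockout value was built into their selection. Among genes at or above the floor in both pools, 8.84% were at least 2-fold lower, as were 3 of the 6 regulators of that kind.

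All 16 probe sets of the 8 genes were lower in the knockout pool, against 59.6% of all probe sets that name 1 gene. Probe sets of 1 gene read the same RNA on the same arrays and are no replicates. Only 9 of the 16 reached the floor on an array, all 9 of them lower, against 56.8% of all such probe sets. Pparg, Nr1h3 and Cebpa had 1 probe set each, the other 5 genes between 2 and 5. Cebpb alone had more than 1 probe set above the floor.

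**Figure D1:**
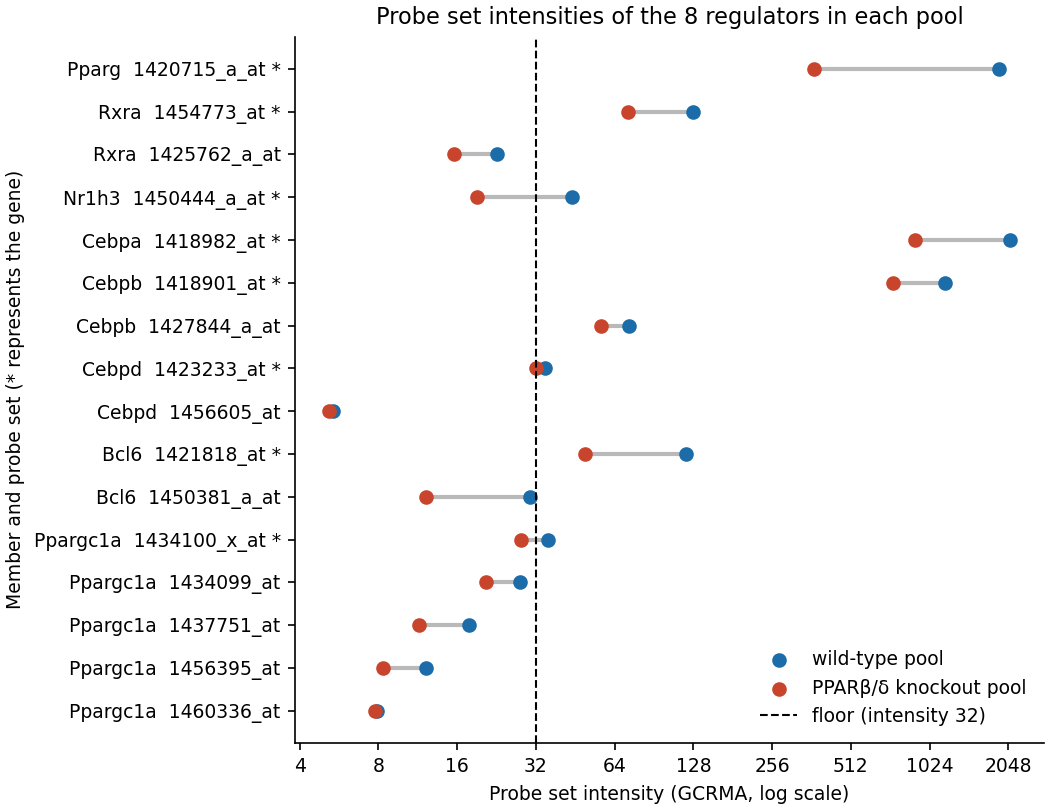
Intensity of each of the 16 probe sets in the wild-type pool (blue) and the PPARβ/δ knockout pool (red), on a log scale, 1 array per pool; the dashed line is the floor of 32 and an asterisk marks the probe set that represents its gene. Every red point lies to the left of its blue point, and the pair farthest apart is that of Pparg, at 1893 and 370.1.

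Among the nuclear receptors, Pparg, the receptor that directs fat cell differentiation and the target of the insulin-sensitising thiazolidinediones, had the largest difference. Its probe set was at 1893 in wild type against 370.1 in the knockout, a log2 difference of -2.35 or 5.12-fold lower. Both values were well above the floor. Only 27 of the 6533 genes compared (0.413%) were as low as Pparg or lower, Pparg itself included. Among the 660 genes whose mean log2 intensity lay within 0.5 of that of Pparg, 5 were (0.758%). The probe set is of the kind that reads several transcripts of a gene, and it does not tell apart the transcripts that start at the alternative promoters of Pparg.

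Rxra, the DNA-binding partner of PPARγ and LXRα, was at 127 in wild type against 72.1 in the knockout, 1.77-fold lower. Its other probe set was below the floor on both arrays, at 22.7 and 15.6, with a log2 difference of -0.55 against -0.82 for the probe set above the floor. A difference as low as that of Rxra was found for 13.1% of the genes compared. The difference of Rxra was therefore within what many genes showed between these arrays.

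Nr1h3, whose product LXRα senses oxysterols and induces genes of cholesterol efflux and lipogenesis, was at 43.9 in wild type against 19.1 in the knockout. The log2 difference as measured was -1.20. Because the knockout value lay below the floor, the difference that the floor allows is at least 1.37-fold, and whether Nr1h3 was 2-fold lower rests on an intensity near background.

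Promoter sequences are shown for Pparg, Cebpa and Bcl6, which with Nr1h3 were the regulators at least 2-fold lower. The relay is known to run through C/EBP and nuclear receptor sites near such genes. The RefSeq promoter table (GRCm38.p6) matched 7 of the 8 genes, with 12 windows; Cebpd had no entry. Windows are the 250 bases before a transcription start, 5′ to 3′ on the strand of the gene, and capitals mark every match on either strand to one of the motifs searched. Pparg is shown at starts 1 and 3 of its 3 listed starts, since the start farthest downstream gives the fat-specific transcript, and Bcl6 at start 1. Cebpb is added as the factor upstream of Pparg and Cebpa.
Pparg, start 1 (chr6:115360894-115361143, plus strand): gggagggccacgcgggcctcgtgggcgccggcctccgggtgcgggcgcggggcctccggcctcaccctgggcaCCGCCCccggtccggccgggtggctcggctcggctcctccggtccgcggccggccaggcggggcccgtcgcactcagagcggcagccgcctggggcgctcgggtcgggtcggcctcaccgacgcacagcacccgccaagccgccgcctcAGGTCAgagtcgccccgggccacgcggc
Pparg, start 3 (chr6:115421816-115422065, plus strand): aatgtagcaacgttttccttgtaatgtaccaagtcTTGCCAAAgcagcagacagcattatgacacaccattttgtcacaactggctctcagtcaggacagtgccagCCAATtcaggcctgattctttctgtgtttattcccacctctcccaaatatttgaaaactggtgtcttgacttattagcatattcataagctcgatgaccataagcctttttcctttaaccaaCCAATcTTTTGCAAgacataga
Cebpa (chr7:35119043-35119292, plus strand): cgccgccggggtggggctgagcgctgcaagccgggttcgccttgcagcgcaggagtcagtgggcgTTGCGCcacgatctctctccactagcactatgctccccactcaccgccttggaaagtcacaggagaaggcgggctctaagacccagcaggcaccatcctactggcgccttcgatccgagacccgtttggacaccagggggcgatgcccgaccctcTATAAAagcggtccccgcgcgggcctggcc
Cebpb (chr2:167688665-167688914, plus strand): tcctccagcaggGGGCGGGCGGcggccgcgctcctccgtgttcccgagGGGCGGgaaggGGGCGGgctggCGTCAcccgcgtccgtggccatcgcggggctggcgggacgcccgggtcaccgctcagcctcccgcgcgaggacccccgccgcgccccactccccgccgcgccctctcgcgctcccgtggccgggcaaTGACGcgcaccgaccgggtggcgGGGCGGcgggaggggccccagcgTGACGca
Bcl6, start 1 (chr16:23988853-23989102, minus strand): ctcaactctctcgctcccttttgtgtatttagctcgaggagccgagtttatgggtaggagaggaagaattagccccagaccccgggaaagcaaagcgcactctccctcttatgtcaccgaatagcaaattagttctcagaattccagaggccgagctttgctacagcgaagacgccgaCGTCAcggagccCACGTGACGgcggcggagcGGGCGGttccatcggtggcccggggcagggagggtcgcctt

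The motifs searched were the C/EBP pattern TTNNGNAA, the core TTGCGC of the C/EBP palindrome, the nuclear receptor half-site AGGTCA, its direct repeat spaced by 1 base (AGGTCANAGGTCA), the CCAAT box (CCAAT), the TATA box (TATAAA), the cyclic AMP response half-site TGACG, the E-box CACGTG and the GC box GGGCGG. The Pparg window of start 3 held the C/EBP pattern on the strand of the gene as TTTTGCAA, 16 to 9 bases before the start, and on the opposite strand 215 to 208 bases before it. It also held the CCAAT box at 2 places, and 40.8% of its bases were G or C. The window of start 1 was 82.4% G or C. It held the half-site AGGTCA, 28 to 23 bases before the start, and a GC box, 177 to 172 bases before it. The Cebpa window held the core TTGCGC 185 to 180 bases before its start and a TATA box 30 to 25 bases before it. The Cebpb window held 3 cyclic AMP response half-sites and 5 GC boxes, of which the first 2 overlap. The Bcl6 window of start 1 held an E-box that overlaps a cyclic AMP response half-site, another such half-site and a GC box. Both Nr1h3 windows, which are not printed, and the other Bcl6 window held none of these letters. Matches of this kind are frequent among promoters. Of the 32851 windows in the table, 36.8% held the C/EBP pattern, 33.8% the CCAAT box, 32.7% the GC box, 17.8% the cyclic AMP response half-site, 14.0% the half-site AGGTCA, 12.4% the TATA box, 6.02% the E-box and 5.34% the core TTGCGC. The direct repeat was in 0.0335% of windows and in none of the 12. A match describes these letters and is not a shown binding site, and the arrays carry no information on binding.

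The 3 C/EBP factors differed by unequal amounts. Cebpa, the late factor that with PPARγ maintains the mature fat cell, was at 2073 in wild type against 900.7 in the knockout, a log2 difference of -1.20 or 2.30-fold lower. Of the genes compared 5.83% were as low or lower, and of the 510 genes of similar intensity 5.29%. Cebpb, an early factor that is also active in macrophages and liver, was at 1171 and 743.1, 1.58-fold lower. Its other probe set above the floor was at 72.6 and 56.7, a log2 difference of -0.36 against -0.66, so the probe sets had the same direction and differed in size. Cebpd, the other early factor, was at 34.8 in wild type against 32.1 in the knockout, a log2 difference of -0.12. Both values lie at the floor and its other probe set was at 5.37 and 5.20, so a change of Cebpd could not be seen at this signal. Nearly as many genes were below as above it, with 48.2% of the genes compared as low or lower.

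Bcl6 was at 120.1 in wild type against 49.5 in the knockout, a log2 difference of -1.28 or 2.43-fold lower. The other probe set of Bcl6 was below the floor on both arrays, at 30.4 and 12.2, and gave a close log2 difference of -1.32. Of the genes compared 4.87% were as low or lower. For Ppargc1a all 5 probe sets were lower, but only 1 reached the floor, at 35.6 in wild type against 28.1 in the knockout, a log2 difference of -0.34. The identifier of that probe set marks it as one that may share sequence with other genes. The other 4 stayed under the floor in each pool, and the differences of all 5 ranged from -0.64 to -0.026 on the log2 scale. Ppargc1a was thus close to background in both pools, where folds are least reliable.

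**Figure D2:**
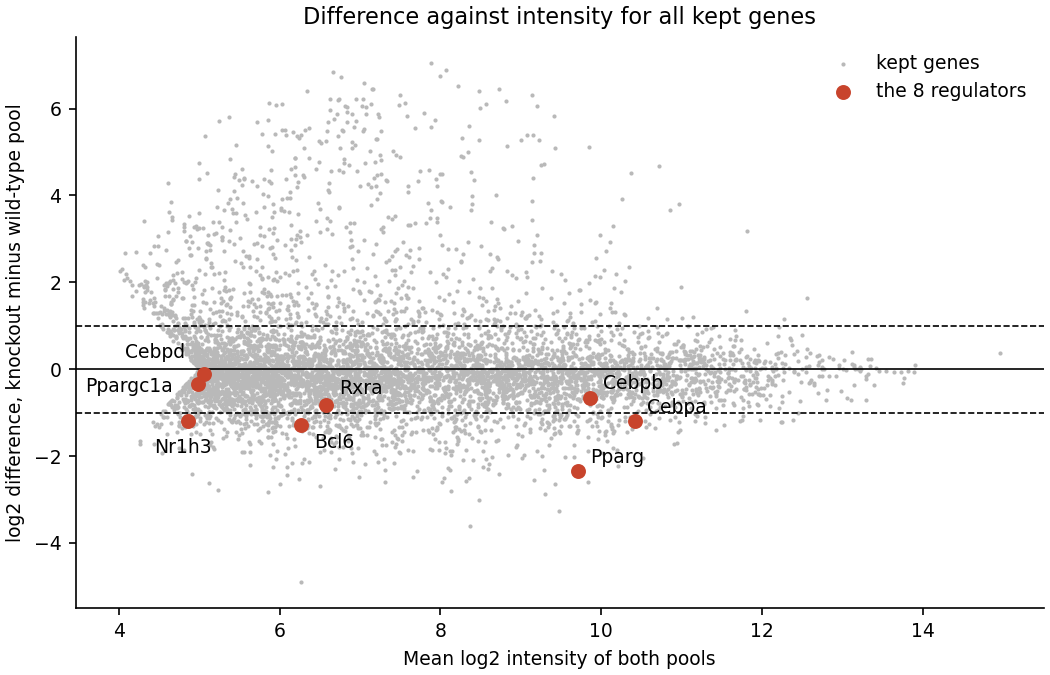
Log2 difference (knockout minus wild-type pool) against mean log2 intensity of both pools for the 6533 genes compared (grey) and the 8 regulators (red); dashed lines mark 2-fold. All red points lie below 0, Pparg at -2.35 lies at the lower edge of the grey cloud, and Nr1h3, Ppargc1a and Cebpd lie at its dim end.

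Pparg stood 1.08 log2 units below Bcl6, the next of the 8. Bcl6, Cebpa and Nr1h3 lay close together, between -1.28 and -1.20, and with 1 array per pool their order carries no meaning. Of the 150 genes in the related lists described next, the 5 whose difference was nearest to that of Pparg over these 2 arrays were Cd163, Lep, Sox18, Slc2a4 and Vwf. Lep, which encodes leptin, was at 1698 in wild type against 232.7 in the knockout. Cd163, a scavenger receptor of macrophages, was at 85.7 and 14.0, the latter below the floor; with it raised to the floor, Lpin1 takes the place of Cd163 among the 5. Slc2a4, the insulin-responsive glucose transporter, was at 231.5 and 80.3. Sox18 and Vwf, markers of endothelium, differed by -1.59 and -1.52 on the log2 scale.

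Kin of the 8 regulators were mostly too dim to compare. Of 13 measured kin and partners of PPARγ, RXRα and LXRα, 10 were below the floor on both arrays, among them Ppara, at 13.6 and 12.0, Rxrg, at 12.3 and 8.39, and the targeted gene Ppard itself, at 6.58 and 6.27, so the array does not check the genotype. The other 3 were lower by less than 2-fold. Thra, a thyroid hormone receptor, was at 73.1 in wild type against 47.4 in the knockout. Rxrb, the other retinoid X receptor above the floor, was at 73.5 and 50.4, a log2 difference of -0.55. Rarg, a retinoic acid receptor, was at 36.6 and 31.8. Of the other C/EBP genes 2 were measured, and they differed in opposite directions. Cebpg had a log2 difference of -0.72, but its other probe set differed by 0.21 and their mean was -0.26, and Ddit3, a stress-induced C/EBP protein that blocks the others by dimerising with them, was higher by 0.56.

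Of 26 other nuclear receptors measured, 7 were above the floor on at least 1 array and 6 in both pools (median log2 difference -0.45). As measured, 1 was at least 2-fold lower and 1 at least 2-fold higher. None was at least 2-fold higher with sub-floor values raised. Nr3c1, the glucocorticoid receptor, whose ligand is a standard inducer of fat cell differentiation, was at 821.2 in wild type against 345.5 in the knockout, 2.38-fold lower. Nr6a1, the germ cell nuclear factor, was the one counted as 2-fold higher as measured. It was at 17.1 (under the floor) in wild type and 54.5 in the knockout, at least 1.70-fold higher. Of 18 coregulators measured, 14 were above the floor, 10 of them lower and 1 at least 2-fold (median -0.43). That one was Lpin1, a phosphatidate phosphatase that also coactivates PPAR complexes, 2.85-fold lower, though another of its probe sets differed by -0.86 only. The highest was Ncoa6, a nuclear receptor coactivator, at 71.9 and 114.9. Rxra thus lay near these lists' members, and Pparg below the lowest of them.

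Other factors of fat cell differentiation were lower on balance whether they promote or restrain it, as were 55.5% of all genes compared. Of 17 measured promoting factors, 14 were above the floor on at least 1 array and 11 in both pools. As measured, 10 were lower, 5 at least 2-fold lower and 1 at least 2-fold higher (median -0.59). With sub-floor values raised, 3 were at least 2-fold lower and none at least 2-fold higher (median -0.50). Under 4 of the alternatives 2 or 3 were at least 2-fold lower. Klf15, a Krüppel-like factor of the mature fat cell, was at 331.0 in wild type against 121.5 in the knockout. Ebf1, an early B-cell factor that activates Pparg and Cebpa, was 2.19-fold lower. Nfia was 2.14-fold lower, though its other probe set above the floor had a log2 difference of -0.70 and their mean was -0.90. Stat5a and Ebf2, whose knockout values lay below the floor, were at least 1.93-fold and at least 1.07-fold lower. Klf5, a Krüppel-like factor that Cebpb and Cebpd induce, was higher by at least 1.09-fold, with 14.3 (under the floor) in wild type and 35.0 in the knockout. Of 19 measured restraining factors, 8 were above the floor on at least 1 array and 6 in both pools. As measured, 7 were lower, 4 at least 2-fold lower and none at least 2-fold higher (median -0.70). With sub-floor values raised, 3 were at least 2-fold lower (median -0.49). Between 1 and 2 were at least 2-fold lower when differences were centred, the intensity trend was removed or a pseudocount of 16 was added. The forkhead factor Foxo1 was 2.34-fold lower and Klf3 2.10-fold. Tcf7l2, a mediator of Wnt signals, and Zfp521 were at least 2.05-fold and at least 1.56-fold lower. Ctnnb1, β-catenin, was the highest, with a log2 difference of 0.037, or -0.10 when its probe sets were averaged. The difference between the promoting and the restraining factors was not tested.

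Genes that these regulators are known to control were mostly lower as well, and none of those above the floor had as low a difference as Pparg. Over all genes compared, 55.5% were lower, 9.14% at least 2-fold lower and 13.7% at least 2-fold higher. Of 15 PPARγ targets above the floor, 14 were lower, 7 at least 2-fold, with a median of -0.76. With sub-floor values raised, 6 were at least 2-fold lower, Nr1h3 no longer among them, and the median was -0.71. With probe sets averaged, 8 were at least 2-fold lower and the median was -1.06. Cebpa and Nr1h3 are counted in both this list and the 8 regulators. The lowest was Slc2a4, 2.88-fold lower. The highest was Aqp7, a glycerol channel, at 0.96. Its other probe set above the floor differed by -2.01, and their mean was -0.53. Of 11 LXR targets, all above the floor, none was at least 2-fold lower and 1 at least 2-fold higher (median -0.40). Mylip, which degrades the LDL receptor, was at 191.9 in wild type against 108.2 in the knockout, and Lpcat3, a phospholipid acyltransferase, at 285.2 and 583.3, 2.05-fold higher. Of 5 genes above the floor that Bcl6 is known to repress, all were lower in the knockout pool (median -0.71), as were 55.5% of all genes compared. At least 2-fold lower was 1 of the 5, though none when differences were centred. A link of these values to Bcl6 was not tested. Socs2, a suppressor of cytokine signals, was at 81.9 and 40.0, and Id2 differed least, at -0.14. Of 13 PGC-1α targets above the floor, 12 were lower and 1 at least 2-fold, or none with the intensity trend removed (median -0.31), from Idh3a, a subunit of isocitrate dehydrogenase, 2.16-fold lower, to Tfam, a mitochondrial transcription factor, at 169.7 and 202.6.

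**Figure D3:**
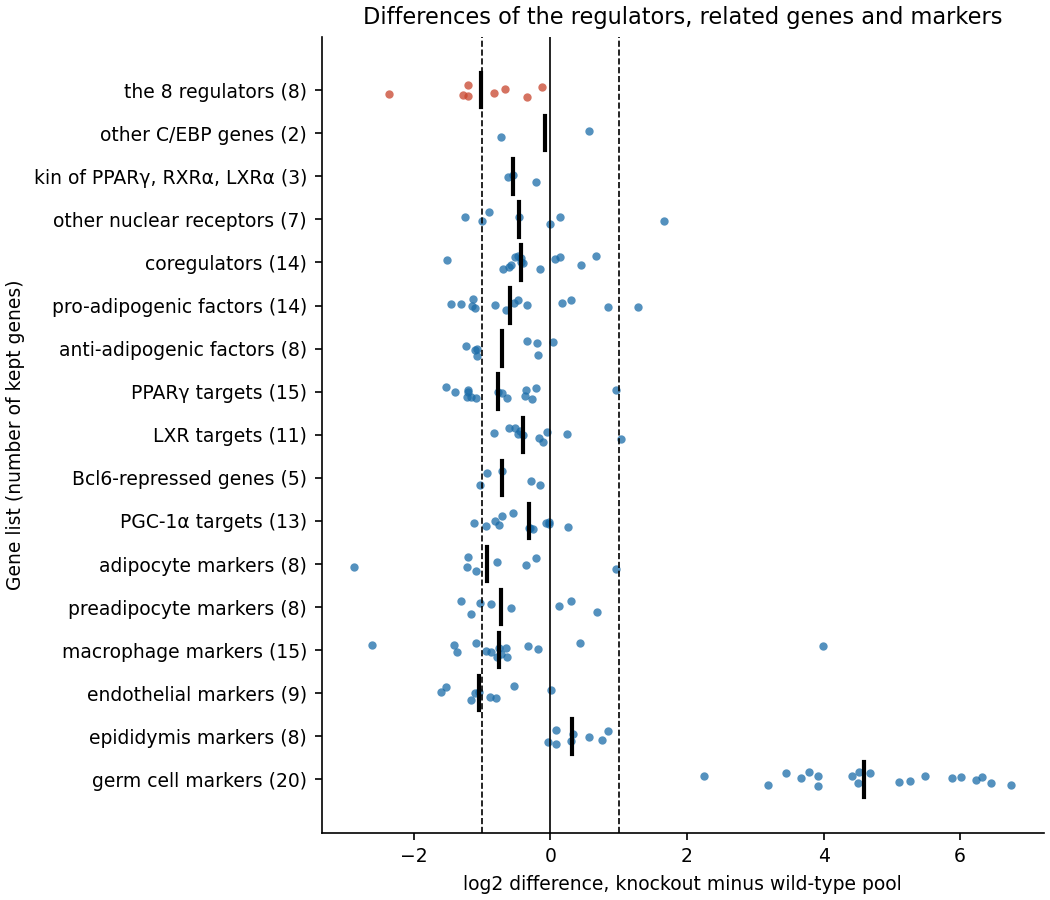
Log2 difference (knockout minus wild-type pool) of each gene above the floor in the 8 regulators (red) and in related gene lists and cell type markers (blue), with the number of genes in brackets; the black bar is the median of the list and dashed lines mark 2-fold. The medians are -1.01 for the regulators (-0.74 with sub-floor values raised), -0.93 for adipocyte markers and -1.04 for endothelial markers. These 2 marker medians did not move with sub-floor values raised, but were -0.81 and -0.86 with the intensity trend removed. The median of the germ cell markers (4.60) lies far to the right.

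Markers of several cell types differed between the same pools, and their part in the differences of the 8 regulators was not tested. Of 9 measured adipocyte markers, 8 were at or above the floor in both pools and 7 of these were lower, 4 at least 2-fold, with a median of -0.93, and their summed intensity was 44058 in wild type against 29319 in the knockout. Leptin was the lowest of them, 7.30-fold lower. The lipid droplet protein gene Cidec and the lipases Lipe and Pnpla2 were 2.34-fold, 2.31-fold and 2.13-fold lower. Aqp7 was the highest, at 0.96, but its other probe set above the floor differed by -2.01. The 8 preadipocyte markers had a median of -0.72, or -0.14 with sub-floor values raised, and 3 were at least 2-fold lower as measured. These were Ebf2, which lay below the floor in the knockout and was at least 1.07-fold lower, Cd34 (2.23-fold) and Pdgfrb (2.04-fold), and Dpp4 was the highest, at 0.68. The 15 macrophage markers had a median of -0.76. Cd163 was at least 2.68-fold lower, Laptm5 2.65-fold, Tyrobp 2.57-fold and Csf1r 2.13-fold, whereas Aif1 was higher, at 103.7 and 1658, by a probe set that may share sequence with other genes. The 9 endothelial markers had a median of -1.04. Sox18 was 3.01-fold lower, Vwf 2.87-fold, Tek 2.24-fold, Esam 2.15-fold and Pecam1 2.05-fold, and Cldn5 was the highest, at 0.012; between 2 and 3 were at least 2-fold lower with the intensity trend removed or a pseudocount of 16.

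Germ cell and epididymis transcripts were present in both pools of this fat depot. Of 20 testis markers, 12 were at or above the floor in both pools. The others were below it in wild type, so a higher knockout value was built into their selection. Each of the 20 testis markers was more than 2-fold higher in knockout RNA, the median log2 difference being 4.60 (4.42 with sub-floor values raised). Sycp3 was the lowest as measured, at 2.25, and Gk2, below the floor in wild type, the highest; with sub-floor values raised the extremes were Sycp1 (1.38) and Meig1 (6.45). Their summed level was 3832 (wild type) and 70713 (knockout). Of the 8 epididymis markers above the floor, 7 were higher, none at least 2-fold, with a median of 0.32, from Cuzd1, at -0.033, to Adam28, at 0.85; Cuzd1 turned positive when differences were centred or the intensity trend was removed. The adipocyte markers Adipoq, Cidec, Fabp4, Pnpla2 and Aqp7 are also in the list of PPARγ targets. Single adipocyte markers ran from -2.87 (Lep) to 0.96 (Aqp7, whose other probe set above the floor differed by -2.01). Whether Pparg differs from fat cell genes as a set was not tested. When the adipocyte marker median of -0.93 was subtracted from every difference, Pparg was at -1.42 on the log2 scale. On that scale 1.01% of the genes compared were at least 2-fold lower and 40.1% at least 2-fold higher. Bcl6, Cebpa and Nr1h3 were no longer 2-fold lower, at -0.35, -0.27 and -0.27, and Rxra, Cebpb, Ppargc1a and Cebpd had the opposite sign, at 0.11, 0.28, 0.59 and 0.82.

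**Figure D4:**
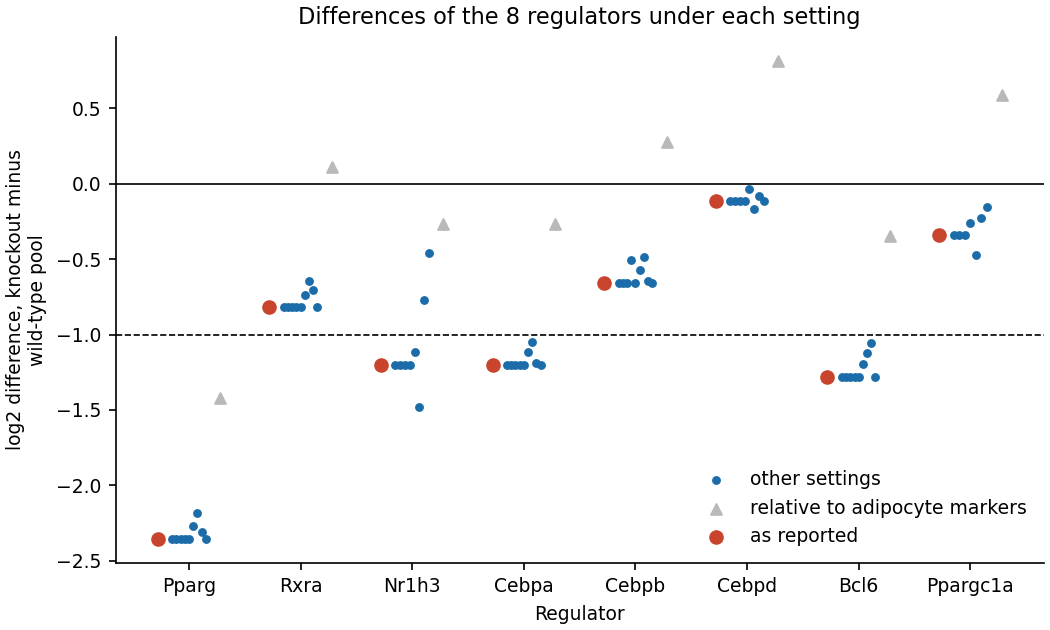
Log2 difference (knockout minus wild-type pool) of each regulator as reported (red), under the other settings for the floor, probe set rule and scaling (blue), and relative to the median of 8 adipocyte markers (grey triangles); the dashed line marks 2-fold lower. Pparg stays below -1 under every setting shown, whereas the blue points of Nr1h3 run from -1.48 to -0.46.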

How the data were processed

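Total RNA of epididymal white adipose tissue was isolated with TRIzol, pooled from 5 male mice per genotype, labelled with biotin and hybridised to Affymetrix mouse arrays, per the labels' protocols and the design text. The authors deposited an intensity per probe set. The submitters' processing notes name GCRMA 2.20, which subtracts background, equalises quantiles and shrinks dim probe sets to similar low values, so that folds near background are unreliable. Values from 1.91 to 36322 show a linear scale. The set of arrays normalised as one is not stated. The annotation supplied is that of a smaller array than the one the design text names.

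Log2 was taken with Python 3.11.15. Of 22690 probe sets, 20393 name 1 gene in the array's annotation, 20364 of them updated by Entrez identifier to GRCm38.p6 symbols; the 691 naming several genes and the 1606 naming none were left out. Across all probe sets the log2 intensities of both arrays had r = 0.944. For a fold with 1 value below the floor, that value was raised to 32 and "at least" was written. The precision is limited by the number of arrays, and no p-value, SD or SE was computed. Genes named are all 8 regulators with every probe set, the lowest and highest gene above the floor of each related or marker list, every gene at least 2-fold different in lists with 6 or fewer such genes, and the 5 nearest to Pparg. Ppara, Rxrg, Ppard, Rxrb, Sycp1 and Meig1 were named after their values were seen. The 8 genes, the lists and the alternatives were chosen with earlier results of these data known. The 9 alternatives changed the floor, the probe set rule, the scaling or the treatment of dim values. The selection and counts were run on simulated arrays with planted changes larger than the 2-fold cutoff and little noise. That run checks the code and does not measure how reliable the counts from these 2 arrays are.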

Additional observations from a re-analysis of the deposited data

How the results depend on the processing

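Under the 9 alternatives for the floor (log2 of 4, 6 or none), the probe set rule, the scaling and dim values, all 8 regulators were lower wherever they could be measured. Pparg ranged from -2.35 to -2.19, Cebpa from -1.20 to -1.05 and Bcl6 from -1.28 to -1.06, all at least 2-fold lower. With a floor of log2 6, Nr1h3, Cebpd and Ppargc1a gave no value, and without probe sets of shared sequence Ppargc1a gave none. Nr1h3 was less than 2-fold lower with log2(intensity + 16), at -0.77, and with dim values set to the floor, at -0.46. The median of the other C/EBP genes, which rests on 2 genes, turned positive with the mean of probe sets (0.15), centring (0.0032) and removal of the intensity trend (0.088). Medians that came to be at least 2-fold lower were those of the PPARγ targets with the mean of probe sets (-1.06) and of the restraining factors without probe sets of shared sequence (-1.07). The endothelial median became less than 2-fold lower with centring (-0.95), removal of the intensity trend (-0.86) and a pseudocount of 16 (-0.90). Counts of genes at least 2-fold lower moved by more than 1.5 times in the restraining factors (4 to between 1 and 2), promoting factors (5 to between 2 and 3), endothelial markers (5 to between 2 and 3), preadipocyte markers (3 to 1), Bcl6-repressed genes and PGC-1α targets (1 to 0 each), and those at least 2-fold higher between 0 and 1 in 6 lists. One alternative was chosen after seeing the data, namely differences relative to the adipocyte marker median of -0.93. It left 1 regulator at least 2-fold lower, Pparg, where 66 of all 6533 genes were at least 2-fold lower and 2619 at least 2-fold higher, with Bcl6 at -0.35, Cebpa at -0.27, Nr1h3 at -0.27, Rxra at 0.11, Cebpb at 0.28, Ppargc1a at 0.59 and Cebpd at 0.82. No paired analysis was possible because each genotype has 1 array. No array could be left out for the same reason. Signal over background limits Cebpd, Ppargc1a and Nr1h3.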
